A study of Mus musculus with 20 samples.

Results

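The genes described here were 9 listed by their products: the cytosolic calcium buffers Calb1 (calbindin), Calb2 (calretinin) and Pvalb (parvalbumin), the small Purkinje cell (PC) proteins Pcp2, Pcp4 and Ppp1r17, and the calcium-binding NECAB proteins Necab1, Necab2 and Necab3. They were found by symbol among the 55401 genes of the count table, where each of the 9 matched 1 protein-coding Ensembl gene, and all 9 passed the filter on low counts in every comparison. The rule that lists them uses names and no measured value, although earlier results of these data were known when it was written. The libraries were made from whole cerebella of C57BL/6J mice, 1 cerebellum per library, in 5 conditions: untreated WT mice at 9w (n = 3), AAV-shA4-treated WT mice at 9w (n = 3), untreated WT mice at 25w (n = 4), AAV-shSCR-treated SCA7 mice at 25w (n = 5) and AAV-shA4-treated SCA7 mice at 25w (n = 5). The SCA7 mice were SCA7 140Q/5Q knock-ins with an expanded CAG repeat in 1 allele of Atxn7 and a normal second allele. The vector was adeno-associated virus of the PHP.eB serotype, given once into the blood through the retro-orbital sinus, with an eGFP reporter under the CMV promoter and a short hairpin RNA under the H1 promoter. The hairpin shA4 is directed at CAG repeats and shSCR is a scrambled control, and per the study's methods untreated mice received saline. Per the study most PCs took up the vector, cells of the molecular layer did so in part and granule cells rarely, and the mice at 25w were male. The weeks are those of the labels, which do not say from which day they count; the study's text counts its times from the injection, made in young mice, and its time for the SCA7 mice is somewhat shorter than the week number of their labels.

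Neurons keep free calcium low with EF-hand proteins that take up calcium quickly and give it back slowly. In the cerebellum calbindin fills PCs, parvalbumin is made by PCs and by the interneurons of the molecular layer, and calretinin is made by granule cells and unipolar brush cells. Pcp2 (also L7) acts on inhibitory G proteins through GoLoco motifs, Pcp4 (PEP-19) binds calmodulin through an IQ motif, and Ppp1r17 (G-substrate) inhibits protein phosphatases once cGMP-dependent protein kinase has phosphorylated it. The NECAB proteins combine an EF-hand region at one end with a monooxygenase-like domain at the other and are made by scattered neuron types of the brain and spinal cord.

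On build GRCm38 (mm10), the buffer genes lay at chr4:15881264-15908064 on the plus strand (Calb1), chr8:110137502-110168210 on the minus strand (Calb2) and chr15:78191114-78206400 on the minus strand (Pvalb). The small PC protein genes lay at chr8:3623371-3625545 on the minus strand (Pcp2), chr16:96467606-96525793 on the plus strand (Pcp4) and chr6:56017497-56032689 on the plus strand (Ppp1r17). Necab1 lay at chr4:14952245-15149794 on the minus strand, Necab2 at chr8:119446719-119472640 on the plus strand and Necab3 at chr2:154544399-154558890 on the minus strand. Since shA4 is directed at CAG repeats, the annotated transcripts of each gene were read for uninterrupted CAG units. The longest run was 3 units in Calb2, 1 in Pvalb and Necab2 and 2 in the other 6 genes, against at least 6 units in 209 of the 21897 protein-coding genes.

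Sequence upstream of the start site was at hand for 5 of the 9 genes in the RefSeq promoter table (GRCm38.p6): Pvalb, Pcp2, Pcp4, Necab2 and Necab3. The 250 bases before the start site are shown for Pvalb, Pcp2 and Pcp4, whose levels moved together across libraries, 5′ to 3′ on the strand of the gene. They cover chr15:78206401-78206650 (minus), chr8:3625548-3625797 (minus) and chr16:96467356-96467605 (plus). Capitals mark the letters AGGTCA on either strand, the half-site bound by nuclear receptors such as RORA.
Pvalb: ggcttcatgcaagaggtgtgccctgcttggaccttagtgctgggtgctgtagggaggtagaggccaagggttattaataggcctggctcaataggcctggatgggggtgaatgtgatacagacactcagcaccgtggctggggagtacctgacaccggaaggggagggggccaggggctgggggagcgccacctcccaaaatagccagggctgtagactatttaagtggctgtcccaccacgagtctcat
Pcp2: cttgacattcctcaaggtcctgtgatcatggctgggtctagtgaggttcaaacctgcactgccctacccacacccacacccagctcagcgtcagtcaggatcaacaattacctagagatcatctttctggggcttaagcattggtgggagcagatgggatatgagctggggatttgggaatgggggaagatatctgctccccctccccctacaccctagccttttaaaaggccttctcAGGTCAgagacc
Pcp4: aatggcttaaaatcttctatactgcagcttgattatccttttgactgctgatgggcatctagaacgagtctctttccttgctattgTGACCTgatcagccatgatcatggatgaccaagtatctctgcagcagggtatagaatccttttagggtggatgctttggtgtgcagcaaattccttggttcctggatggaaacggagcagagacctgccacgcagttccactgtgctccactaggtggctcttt
The half-site was found once upstream of Pcp2, beginning 12 bases before the start site, and once farther upstream of Pcp4, where it read TGACCT on the strand shown. It was found in none of the other 3 windows, and 4607 of the 32851 windows of the same length in the table held it. The letters TATAAA, searched on the gene's strand, were in none of the 5 windows and in 7.59% of all. The CG dinucleotide occurred 4 times upstream of Pvalb, 1 time upstream of Pcp2 and 3 times upstream of Pcp4, but 13 times upstream of both Necab2 and Necab3, with a median of 6 over all windows.

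The libraries held 31465586 to 54570503 counted reads. At 9w the untreated libraries were all deeper (47455917 to 49212593 reads) than the AAV-shA4 libraries (36245752 to 39208298 reads). In SCA7 mice Atxn7 stood at 45.6 to 53.4 CPM (read counts scaled to the size of the library) with AAV-shSCR and at 44.5 to 51.7 CPM with AAV-shA4, which are overlapping ranges. Reads of both alleles were counted together, so these counts do not tell the expanded from the normal allele. Markers of PCs, granule cells and Bergmann glia were abundant in every library, whereas the summed level of 10 brainstem markers did not pass 1.73 CPM and that of 5 forebrain markers did not pass 12.5 CPM. The choroid plexus markers ranged from 35.9 to 3849 CPM in sum between libraries, without separating the groups. Replicate 1 of the untreated WT mice at 25w and replicate 1 of the AAV-shA4-treated SCA7 mice stood apart by their level of Slc17a6 and Sst. The fold changes of Necab2 that use these libraries are given with and without them. The SD of Necab2, its proportion of the PC markers and all results of marker and partner genes include them.

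The levels of the 9 genes spanned a wide range, which is given here per kilobase of the median annotated transcript and on 1 scale for all 20 libraries. In untreated WT mice at 25w Calb1 stood highest, at 1565 ± 88.0 CPM per kb (SD, n = 4), followed by Pcp2 at 1051 ± 40.2, Pvalb at 589 ± 23.7, Calb2 at 418 ± 36.5 and Pcp4 at 351 ± 36.2. Ppp1r17 reached 148 ± 8.78 CPM per kb, Necab3 53.0 ± 1.14, Necab1 14.2 ± 0.76 and Necab2 3.33 ± 1.52. The gap between neighbours in this order was larger than the SD of either. Calb1 was the gene with rank 29 of 15095 by this measure and Necab2 had rank 11182, so that the members ran from the most abundant transcripts of the tissue to a low one. The order of the upper 5 genes depends on the transcript length used, since with the longest transcript Pvalb led at 582 CPM per kb and Calb1, whose longest transcript is 4222 bases against a median of 736, stood at 273.

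**Figure D1:**
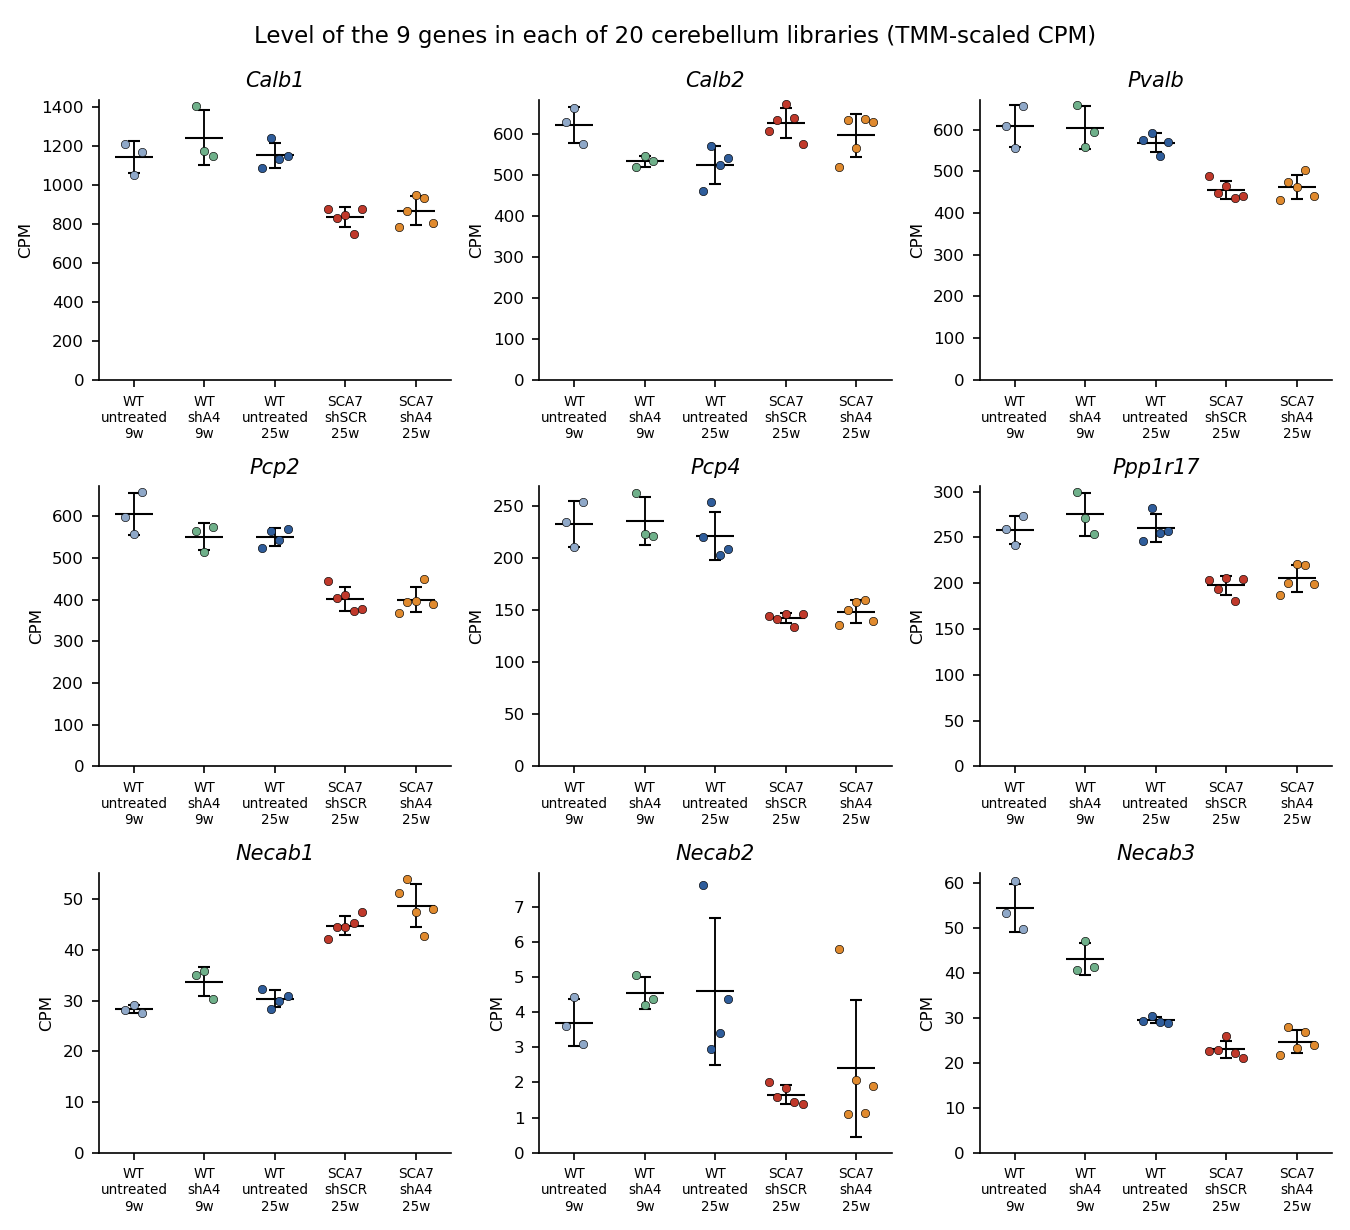
Level of each gene in CPM (vertical axes from 0) in the 20 libraries, by condition; points are single libraries in the order of their replicate numbers, long bars are means and whiskers are SDs. Calb1, Pvalb, Pcp2, Pcp4 and Ppp1r17 lie lower and Necab1 lies higher in both SCA7 groups than in the untreated WT mice at 25w, while Necab3 is highest at 9w.

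The comparison of AAV-shSCR-treated SCA7 mice with untreated WT mice at 25w asks how the disease state moved these genes. The SCA7 mice carried vector and the WT mice did not, so genotype and vector cannot be told apart in it. A gene was called when edgeR's quasi-likelihood test gave a Benjamini-Hochberg adjusted p under 0.05 over all 14862 genes tested and the fold change passed 1.3, which is 0.38 on the log2 scale. In this comparison 5 members were called lower (Calb1, Pcp2, Pcp4, Ppp1r17 and Necab2), against 2.66% of all genes tested, and 1 was called higher (Necab1), against 1.35%. The 5 SCA7 libraries lay entirely below the 4 WT libraries for 7 members, which held for 9.33% of all genes, and entirely above them for 2 (Calb2 and Necab1), which held for 7.48%. The median log2 fold change of the 9 was −0.39, beside 0.00 for all genes. In a bulk sample fewer cells of a type and less RNA per cell cannot be told apart, and this holds for each result below.

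Among the buffers Calb1, which limits calcium rises in PC dendrites and somata, fell by 27.5%. Its level in untreated WT mice at 25w was 1086, 1240, 1131 and 1150 CPM in replicates 1 to 4, and with AAV-shSCR it was 874, 829, 843, 750 and 876 CPM in the 5 SCA7 mice. The lowest WT library was therefore above the highest SCA7 library. The log2 fold change was −0.46 (SE 0.060, edgeR adjusted p = 4.34e-05). Pvalb, a calcium buffer of PCs and molecular layer interneurons with a slow onset, stood at 574, 592, 537 and 571 CPM in the WT mice and at 488, 447, 465, 436 and 441 CPM with AAV-shSCR. Here too the groups did not overlap, but the log2 fold change of −0.32 (SE 0.046, edgeR adjusted p = 0.000135) was below the fold limit.

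Calb2, the buffer of granule and unipolar brush cells, lay on the other side. It stood at 462, 571, 526 and 541 CPM in the untreated WT mice at 25w and at 608, 636, 674, 641 and 577 CPM with AAV-shSCR. All 5 SCA7 libraries were above the WT ones, although the nearest values were within a few CPM of each other. The log2 fold change of +0.26 (SE 0.067, edgeR adjusted p = 0.0144) did not reach the fold limit. Of 8 granule cell markers none passed both limits, although Cbln1 (log2 fold change −0.25) and Cbln3 (−0.19) had adjusted p under 0.05 in edgeR's test, and the sum of the 8 ranged from 5648 to 6717 CPM in these WT mice and from 5885 to 6140 CPM with AAV-shSCR. Among the 4 unipolar brush cell markers Eomes fell by 1.17 on the log2 scale.

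All 3 small PC proteins fell. Pcp4, the calmodulin-binding protein, fell by 35.5%: it stood at 220, 254, 203 and 209 CPM in the untreated WT mice at 25w and at 145, 141, 146, 134 and 147 CPM with AAV-shSCR. The SCA7 values lay close together and far below the WT range. The log2 fold change was −0.63 (SE 0.061, edgeR adjusted p = 1.76e-06), with rank 108 by p among the 14862 genes. Pcp2, whose upstream sequence is given above, stood at 524, 565, 543 and 570 CPM in the WT mice and at 444, 405, 410, 373 and 377 CPM with AAV-shSCR, again without overlap. It fell by 27.0% (log2 fold change −0.45, SE 0.056, edgeR adjusted p = 2.31e-05). Ppp1r17, the phosphatase inhibitor, stood at 246, 282, 255 and 257 CPM against 203, 194, 205, 180.8 and 204 CPM. It fell by 23.9% (log2 fold change −0.39, SE 0.053, edgeR adjusted p = 6.2e-05), close to the fold limit, and it was below that limit without AAV-shSCR replicate 4 (−0.37) or without WT replicate 2 (−0.35).

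The NECAB genes went in both directions. Necab1 rose by 47.4%: the untreated WT mice at 25w had 32.3, 28.4, 29.99 and 30.9 CPM and the AAV-shSCR-treated SCA7 mice 42.2, 44.6, 44.5, 45.3 and 47.4 CPM. The gap between the highest WT and the lowest SCA7 library was several times the SD within either group (1.63 and 1.86 CPM). The log2 fold change was +0.56 (SE 0.058, edgeR adjusted p = 3.96e-06). Necab3 stood at 29.4, 30.4, 29.2 and 28.9 CPM in the WT mice and at 22.7, 22.9, 26.1, 22.2 and 21.1 CPM with AAV-shSCR. These groups did not overlap either, and the log2 fold change of −0.36 (SE 0.070, edgeR adjusted p = 0.00211) was just under the fold limit, which it passed without AAV-shSCR replicate 3 (−0.41).

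Necab2 had the lowest level and the widest scatter of the 9 genes. The untreated WT mice at 25w had 7.61, 2.95, 3.41 and 4.39 CPM and the AAV-shSCR-treated SCA7 mice 2.01, 1.59, 1.84, 1.45 and 1.37 CPM, with 50 to 75 reads in the latter. The groups did not overlap, and the log2 fold change was −1.48 (SE 0.40, edgeR adjusted p = 0.0182). AAV-shA4-treated SCA7 mice had 5.80, 1.11, 2.06, 1.14 and 1.89 CPM, so that replicate 1 stood apart from the other 4. WT replicate 1 and AAV-shA4 replicate 1, the highest 2 of all 20 libraries for Necab2, also had the highest Slc17a6 (80.2 and 74.5 CPM, against 14.5 to 36.9 CPM in the other 18) and the highest Sst (26.1 and 21.9 CPM, against 1.45 to 11.2 CPM). Slc17a6 encodes the vesicular glutamate transporter of the cerebellar nuclei and many nuclei outside the cerebellum, and Sst encodes somatostatin; both were picked out after their values were seen. Necab2 varied within conditions with an SD of 0.57 on the log2 scale, at percentile 97.7 of all genes, against 0.09 to 0.12 for the other 8 members.

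**Figure D2:**
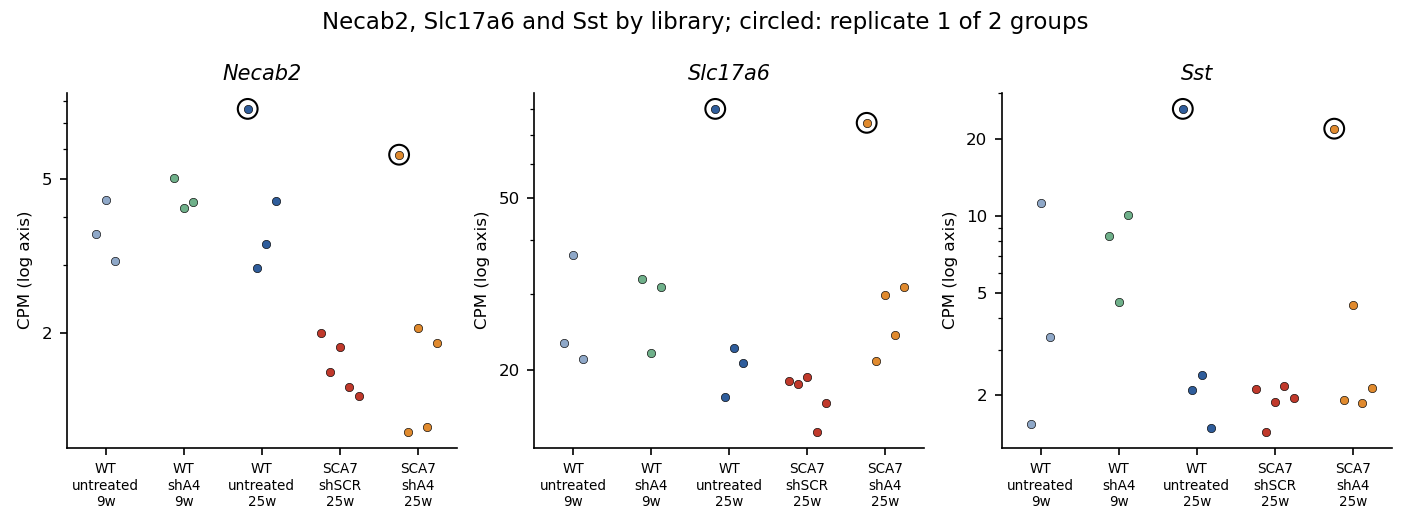
Levels of Necab2, Slc17a6 and Sst in CPM (log axes) in the 20 libraries, by condition; points are single libraries, and the circled ones are replicate 1 of the untreated WT mice at 25w and replicate 1 of the AAV-shA4-treated SCA7 mice. The circled libraries are the highest 2 for each of the 3 genes, at 5.80 and 7.61 CPM for Necab2.

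Leaving out WT replicate 1 gave Necab2 a log2 fold change of −1.11 with AAV-shSCR, which was no longer called (edgeR adjusted p = 0.0793). Leaving out both of these libraries gave the same −1.11 with a smaller spread, and it was then called (edgeR adjusted p = 0.0011). No other member gained or lost its call in this comparison when both were left out. The part of the cells behind Slc17a6 and Sst in the Necab2 result was not tested.

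**Figure D3:**
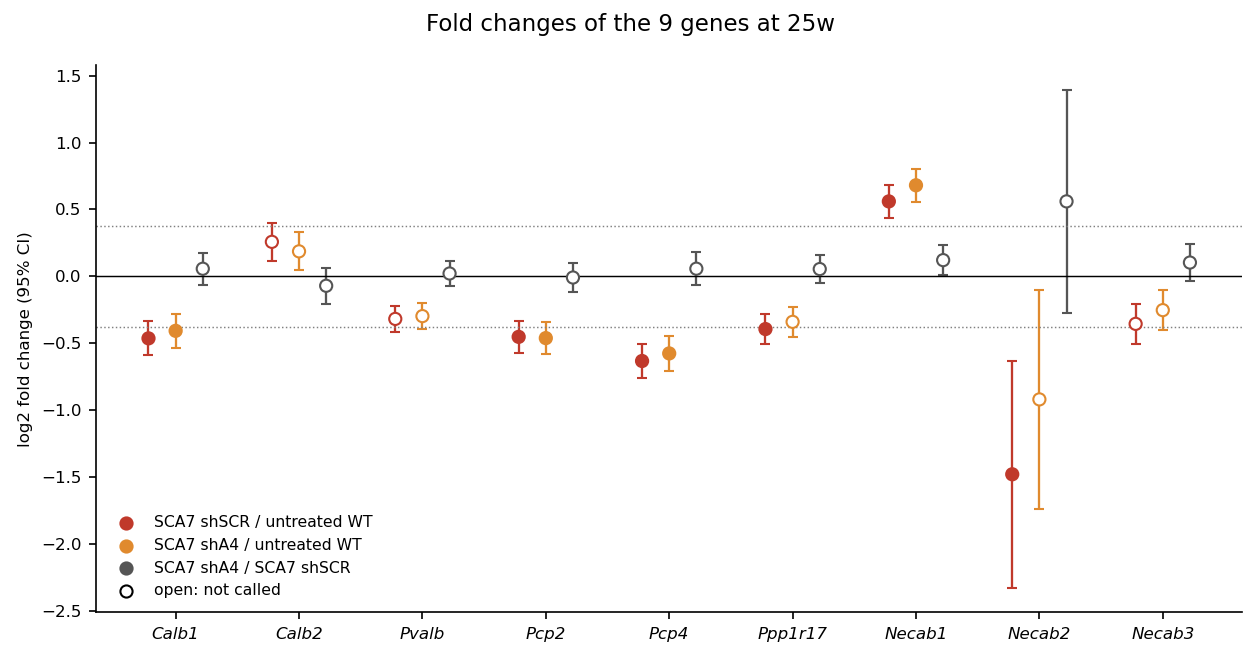
Log2 fold change of each gene at 25w (vertical axis) with its 95% confidence interval, in 3 comparisons; filled points passed both limits of the call and dotted lines mark a fold change of 1.3. Both SCA7 groups lie on the same side of the untreated WT mice for each gene, and the direct comparison of the SCA7 groups lies near 0 except for the wide interval of Necab2.

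AAV-shA4-treated SCA7 mice were compared with the same 4 untreated WT mice, so this comparison shares its controls with the previous one and again sets vector against no vector. Here 3 members were called lower (Calb1, Pcp2 and Pcp4), against 2.27% of all 14862 genes, and 1 was called higher (Necab1), against 1.18%. The SCA7 libraries lay entirely below the WT ones for 6 members (7.91% of all genes) and entirely above them for 1 (5.53% of all genes). Calb1 stood at 784, 865, 950, 935 and 806 CPM and fell by 24.6% (log2 fold change −0.41, edgeR adjusted p = 0.000188). That call was near the fold limit and was lost without AAV-shA4 replicate 1 or without WT replicate 2 (log2 fold change −0.37 in each). Pcp4, at 135, 150, 158, 160 and 139 CPM, fell by 33.0% (log2 fold change −0.58, edgeR adjusted p = 5.46e-06). Pcp2, at 367, 394, 397, 449 and 391 CPM, fell by 27.4% (log2 fold change −0.46, edgeR adjusted p = 2.17e-05). All libraries of both genes lay below the WT ones. Necab1 rose by 60.3% to 51.3, 53.9, 47.5, 42.7 and 48.0 CPM (log2 fold change +0.68, SE 0.058, edgeR adjusted p = 5.29e-07), with rank 57 by p.

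The other 5 genes were not called with AAV-shA4. Ppp1r17 (187, 200, 221, 220 and 199 CPM) had a log2 fold change of −0.34, Pvalb (431, 474, 463, 504 and 440 CPM) of −0.30 and Necab3 (21.7, 27.9, 23.3, 26.9 and 24.0 CPM) of −0.25. Each of these had an adjusted p under 0.05 in edgeR's test and no overlap with the WT mice, and each was below the fold limit. Calb2 (521, 634, 567, 637 and 629 CPM) overlapped the WT range and had a log2 fold change of +0.19 (edgeR adjusted p = 0.0766). Necab2 also overlapped it (log2 fold change −0.92, edgeR adjusted p = 0.136). Without AAV-shA4 replicate 1 the log2 fold change of Necab2 was −1.57 (edgeR adjusted p = 0.00112), and without both libraries that stood apart it was −1.20 (edgeR adjusted p = 0.00119), so that it was then called.

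The direct comparison of AAV-shA4 with AAV-shSCR, where both groups carried the vector, asks whether shA4 moved these genes in SCA7 mice. None of the 9 was called in either direction, and neither was any of the 14862 genes tested (0% lower and 0% higher), while 1222 genes had an unadjusted p under 0.05 in edgeR's test and DESeq2 called 5 genes, none of them a member. The libraries of the treatments overlapped for all 9 members; 0.72% of all genes lay entirely lower and 0.774% entirely higher. Necab1 was the 1 member with an unadjusted p under 0.05 (log2 fold change +0.12, 95% CI 0.01 to 0.23, edgeR adjusted p = 0.592), and its difference lay in the direction away from the WT mice. The absence of a call does not show that a gene was unmoved. For Calb1 (+0.06, CI −0.06 to 0.18), Pcp4 (+0.06, CI −0.07 to 0.18) and Ppp1r17 (+0.05, CI −0.05 to 0.16) the 95% intervals held 0 as well as a rise of up to 0.18 on the log2 scale. Those of Pvalb and Pcp2 ended at 0.11 and 0.10, and that of Calb2 ran from −0.20 to 0.06. Necab3 had +0.10 (CI −0.04 to 0.24). For Necab2 the log2 fold change of +0.56 had a CI from −0.27 to 1.39 and turned to −0.08 without AAV-shA4 replicate 1. Against the WT mice Ppp1r17 and Necab2 had been called under the scrambled hairpin alone, but for neither of them was the difference between the hairpins called.

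The label of small PC proteins was checked against 14 other PC markers, none of which is a member. All 14 lay lower with AAV-shSCR than in untreated WT mice (8 called, median log2 fold change −0.46), and 13 lay lower with AAV-shA4 (8 called, median −0.41). Of all genes 49.5% lay lower with AAV-shSCR and 47.8% with AAV-shA4. The summed level of the 14 markers was 10030 to 11240 CPM in the untreated WT mice at 25w, 7016 to 7828 CPM with AAV-shSCR and 7131 to 8228 CPM with AAV-shA4. Relative to this sum Calb1 made up 10.9% ± 0.13 (SD, n = 4) in the WT mice and 11.1% ± 0.25 (n = 5) with AAV-shSCR, and Pcp2 5.22% ± 0.18 and 5.34% ± 0.34. Pcp4 made up 2.10% ± 0.16 and 1.90% ± 0.02, whereas Ppp1r17 made up 2.46% ± 0.035 and 2.62% ± 0.038 and Pvalb 5.39% ± 0.27 and 6.06% ± 0.26. For Calb2 the values were 4.97% ± 0.25 and 8.36% ± 0.72, and for Necab1 0.289% ± 0.029 and 0.596% ± 0.036. Necab3 made up 0.279% ± 0.0098 and 0.306% ± 0.026, and Necab2 0.0442% ± 0.022 and 0.0219% ± 0.0032. The ranges of Calb1 overlapped between the groups. Relative to the PC markers all 5 values of Pcp4 with AAV-shSCR (1.874% to 1.915%) lay below the 4 WT values (1.93% to 2.258%). The mean of Pvalb was slightly higher with AAV-shSCR. All 5 values of Ppp1r17 (2.58% to 2.68%) lay above the 4 WT values (2.42% to 2.51%), and Calb2 and Necab1 were far higher. The sum itself was lower with AAV-shSCR, so a gene whose own level did not change would also have a higher proportion. A higher proportion is therefore no sign of a higher level: Necab3 and Ppp1r17 had one although their own levels fell. These proportions are descriptions and were not tested.

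Other cell types' markers moved as well. The 8 oligodendrocyte markers summed to 5686 to 6737 CPM in the untreated WT mice at 25w, 4175 to 5020 CPM with AAV-shSCR and 4634 to 5276 CPM with AAV-shA4, and Mobp (log2 fold changes −0.48 and −0.38) was called in both SCA7 groups. The 7 markers of molecular layer interneurons, the other cells that make parvalbumin, had no call, with sums of 461 to 509, 458 to 489 and 449 to 491 CPM. Of 4 Golgi cell markers Grm2 was called in both SCA7 groups (−0.72 and −0.51), and of the 8 markers each of astroglia and of microglia none was. Of the 8 astroglial markers 7 lay lower in each SCA7 group. Slc1a2 (−0.19) and Aqp4 (−0.32) had adjusted p under 0.05 in edgeR's test with AAV-shSCR. So did Aqp4 (−0.28), Gfap (−0.29) and Sox9 (−0.30) with AAV-shA4. The astroglial sums were 3340 to 3435 CPM in the WT mice, 2966 to 3200 CPM with AAV-shSCR and 2977 to 3523 CPM with AAV-shA4. The part of these cell types in the members' results was not tested.

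Levels also varied between mice of the same condition, and the members fell into sets by how they varied together. For each gene the deviation of log2 CPM from the mean of its condition was taken in all 20 libraries. Calb1 and Ppp1r17 deviated together most closely (Pearson's r = 0.937 over 20 libraries, and 0.918 without the 2 libraries farthest out for Calb1), followed by Pcp4 and Ppp1r17 (r = 0.885), Calb1 and Pcp4 (r = 0.849) and Pvalb and Pcp2 (r = 0.834). Calb2 went with Necab3 (r = 0.734, and 0.782 without the 2 libraries farthest out for Calb2). Necab1 deviated opposite to Pcp2 (r = −0.72). With the mean of the 14 PC markers r was 0.923 for Calb1, 0.864 for Ppp1r17, 0.807 for Pcp4, 0.733 for Pvalb and 0.658 for Pcp2, but 0.221 for Calb2, 0.093 for Necab3, −0.439 for Necab1 and −0.452 for Necab2. Without the 2 libraries farthest out for each gene, r ranged from 0.553 (Pcp2) to 0.907 (Calb1) in the former genes. It was then −0.14 for Calb2, 0.084 for Necab3, −0.416 for Necab1 and −0.129 for Necab2, so the value of Necab2 rested largely on those libraries. The points share libraries, their depth and 1 scaling factor each, so these values describe the libraries and carry no test.

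**Figure D4:**
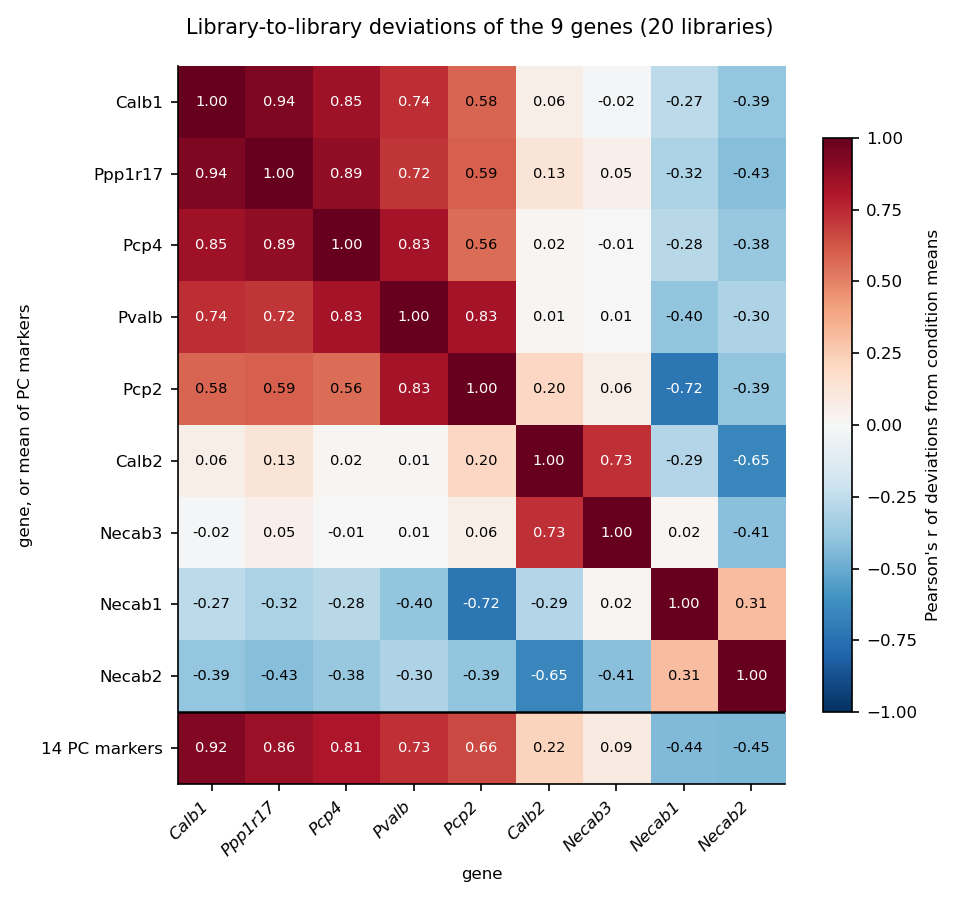
Pearson's r between genes (rows and columns, ordered by the bottom row) of their deviations from condition means on the log2 CPM scale over 20 libraries; the bottom row gives r with the mean of 14 PC markers. Calb1, Ppp1r17, Pcp4, Pvalb and Pcp2 form a block from 0.56 to 0.94, and Calb2 and Necab3 pair at 0.73.

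Over all genes measured, the 3 whose deviations were most like those of Calb1 were Cep76 (r = 0.944), Inpp5a (0.937) and Ppp1r17 (0.937). For Ppp1r17 they were Sycp1 (0.96), Calb1 and Inpp5a, the last an inositol phosphatase that PCs express strongly. Pcp4 was most like mt-Cytb (0.96) and mt-Nd4 (0.914), both encoded in the mitochondrial genome, and Psma4 (0.912). Pvalb was most like Ndufs4, Nsg1 and Hsd11b1 (0.9 to 0.934), Pcp2 like Reep2, Selenow and Nxph3 (0.883 to 0.903) and Calb2 like Cadm3, Camkk2 and Wscd2 (0.907 to 0.93). Necab1 and Necab3 had looser companions: Ints4, Ccdc30 and Pou4f1 for the former (0.79 to 0.83), and Gipr, Zkscan6 and Mpp4 for the latter (0.754 to 0.801). Necab2 was most like Sh3gl3 (0.948), Tmem91 (0.941) and Lrfn2 (0.931), with r of 0.854, 0.821 and 0.828 without the 2 libraries farthest out for Necab2.

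In WT mice at 9w AAV-shA4 was compared with no treatment, so that vector and hairpin cannot be told apart. No member was called, against 0.00679% of the 14733 genes called lower and 0.0475% called higher, which were 8 genes in all; 1639 genes had an unadjusted p under 0.05 in edgeR's test and DESeq2 called 53 genes. The 3 AAV-shA4 libraries lay entirely below the 3 untreated ones for 2 members (8.5% of all genes) and entirely above them for 1 (7.52% of all genes). Necab3 stood at 53.3, 60.4 and 49.8 CPM untreated and at 40.7, 47.1 and 41.3 CPM with AAV-shA4 (log2 fold change −0.34, SE 0.078, edgeR adjusted p = 0.176). Calb2 stood at 630, 664 and 577 CPM and at 521, 547 and 536 CPM (log2 fold change −0.23, edgeR adjusted p = 0.22). Necab1 stood at 28.2, 29.1 and 27.6 CPM and at 35.0, 35.8 and 30.4 CPM (log2 fold change +0.25, edgeR adjusted p = 0.264). The untreated libraries were also the deeper ones, and the part of depth was not tested. The PC genes Calb1 (+0.12), Pvalb (−0.01), Pcp2 (−0.14), Pcp4 (+0.01) and Ppp1r17 (+0.09) overlapped between the groups.

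The untreated WT mice at 25w were compared with those at 9w to see how the genes moved with time, which cannot be told apart from any difference in preparation or sequencing between the sets. Necab3 was the 1 member called: from 53.3, 60.4 and 49.8 CPM at 9w it fell by 45.9% to 29.4, 30.4, 29.2 and 28.9 CPM at 25w. Every 25w library was far below every 9w library. The log2 fold change was −0.89 (SE 0.062, edgeR adjusted p = 6.3e-05), with rank 11 by p among 14875 genes, of which 1.91% were called lower and 3.23% higher. Calb2 had a log2 fold change of −0.25 without overlap (edgeR adjusted p = 0.0299), below the fold limit. With Necab3 it made 2 members that lay entirely lower (17.1% of all genes) and none that lay entirely higher (16.7% of all genes). Calb1 (+0.01), Ppp1r17 (+0.01), Pcp4 (−0.07), Pvalb (−0.09), Pcp2 (−0.14) and Necab1 (+0.11) were not called, and neither was Necab2 (+0.32), whose value turned to −0.05 without WT replicate 1 at 25w. Over the same interval 5 of the 8 oligodendrocyte markers were called lower, with sums of 7981 to 8270 CPM at 9w and 5686 to 6737 CPM at 25w, and their part in the Necab3 result was not tested. Over all 5 conditions Necab3 decreased from untreated WT mice at 9w (54.5 ± 5.36 CPM) through AAV-shA4-treated WT mice at 9w (43.1 ± 3.53), untreated WT mice at 25w (29.5 ± 0.64) and AAV-shA4-treated SCA7 mice (24.7 ± 2.55) to AAV-shSCR-treated SCA7 mice (23.0 ± 1.85), where the last pair did not differ beyond their SDs.

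**Figure D5:**
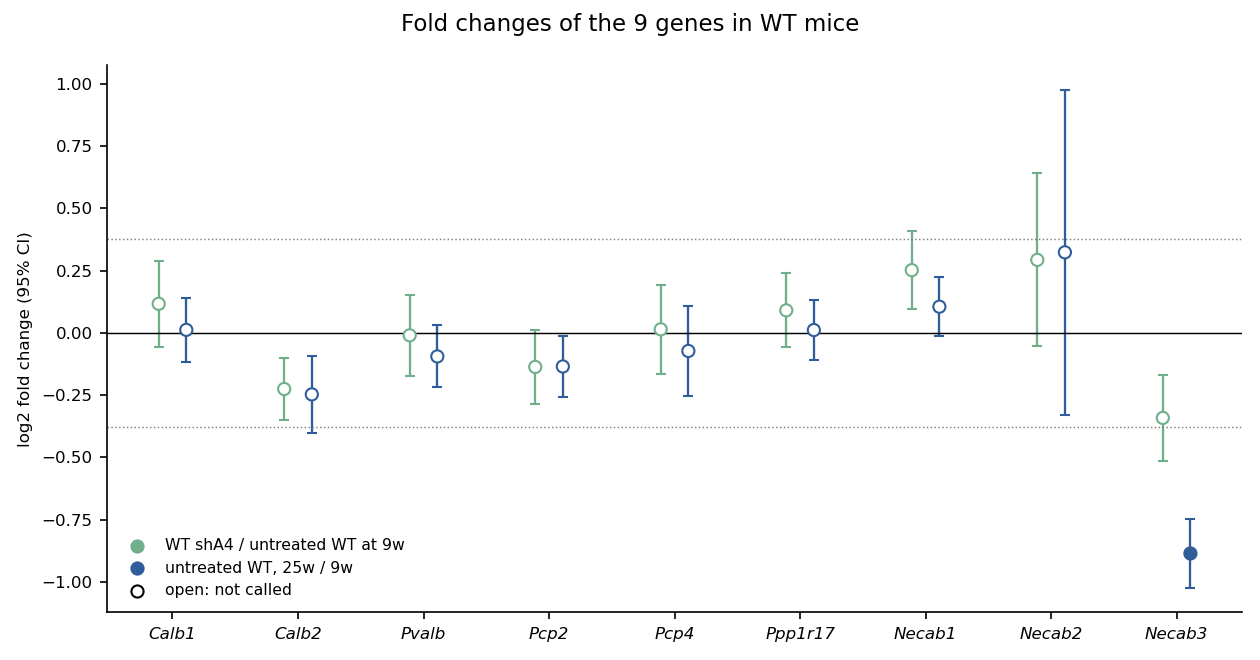
Log2 fold change of each gene in WT mice (vertical axis) with its 95% confidence interval, for AAV-shA4 against no treatment at 9w and for untreated mice at 25w against 9w; the filled point passed both limits of the call and dotted lines mark a fold change of 1.3. Necab3 at −0.89 is the 1 gene called.

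Genes that act with the members were taken from lists by function. Of 20 calmodulin genes and neuronal calcium sensors, 17 lay lower with AAV-shSCR than in untreated WT mice at 25w, as did 49.5% of all genes. The 4 called were Hpcal1 (log2 fold change −0.56), a PC-enriched sensor of the visinin family, Cabp7 (−0.56) and the potassium channel subunits Kcnip4 (−0.42) and Kcnip1 (−0.40). With AAV-shA4 the 1 call was Hpcal1 (−0.58), while Cabp7 (−0.37), Kcnip1 (−0.35) and Kcnip4 (−0.34) had adjusted p under 0.05 in edgeR's test and lay just below the fold limit. The median of the list was −0.16 and −0.14, beside 0.00 and 0.01 for all genes. Of the 14 IQ-motif proteins and calmodulin kinases around Pcp4, the 1 call was Camk2a with AAV-shSCR (−0.67), and of the 13 endoplasmic reticulum calcium-binding proteins it was the chaperone Hspa5 (−0.39). With AAV-shA4 neither was called, at −0.43 for Camk2a (edgeR adjusted p = 0.098) and −0.31 for Hspa5 (edgeR adjusted p = 0.0987). None of the 7 tested S100 and other EF-hand buffer genes was called in any comparison, and Scgn, Ocm and S100g were too low to test.

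Around Ppp1r17, 3 of 16 genes of cGMP signalling and phosphatases were called lower in both SCA7 groups: the cGMP phosphodiesterase Pde5a (log2 fold changes −0.66 with AAV-shSCR and −0.59 with AAV-shA4), the cGMP-dependent kinase Prkg1 (−0.50 and −0.56), which phosphorylates Ppp1r17, and the phosphatase inhibitor Ppp1r1b (−0.45 and −0.46). Pde9a (−0.36 and −0.35) had adjusted p under 0.05 in edgeR's test in both groups and lay just below the fold limit. Of the 16 genes, 13 and 12 lay lower, beside 49.5% and 47.8% of all genes. The 9 GoLoco proteins and Gi/o subunits around Pcp2 had no call, with medians of 0.00 and 0.02. Below the fold limit, Gnao1 was lower in both SCA7 groups (−0.27 and −0.25) without overlap with the WT mice. Gnai1 was lower with AAV-shSCR (−0.15), whereas Gnai2 was higher with AAV-shA4 (+0.12). Each of these had an adjusted p under 0.05 in edgeR's test. The 4 NECAB partners Adora2a, Grm5, Syt1 and Apba2 had no call either. Between AAV-shA4 and AAV-shSCR, and in WT mice at 9w, no gene of these 7 lists was called.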

How the data were processed

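Total RNA of 20 cerebella was made into poly(A) libraries (Illumina Stranded mRNA Prep) and sequenced as single reads. The authors deposited raw read counts per gene. The submitters' processing notes name bcl2fastq 2.20.0.422, cutadapt 1.10, Bowtie2 2.2.8, STAR 2.5.3a, HTSeq 0.6.1p1 and mm10; the strand setting of counting is not given in the sources used here. Counts of protein-coding genes (GENCODE M21) were tested with edgeR 4.0.16 in R 4.3.3, with TMM scaling, filterByExpr (minimum counts of 10 per library and 15 in total) and the quasi-likelihood test with Benjamini-Hochberg adjustment over all genes tested. The 14 libraries at 25w shared 1 fit, and the WT comparisons had fits of their own (6 and 7 libraries). DESeq2 1.42.0 was an alternative. The scripts were tested on simulated data. CPM used TMM factors over all 20 libraries, with 0.1 added before logs.

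The members and lists were chosen with earlier results of these data known. Named genes were the 9 members, up to 3 called genes with the largest change per list, direction and comparison, and the 3 genes most like each member. Replicates differed by more than sampling noise (chi-square per degree of freedom 4.87 to 26.1). Reads on overlapping genes may be lost or shared: Pcp2 lies within Pet100 (opposite strand, 439 to 845 reads) and Pcp4 overlaps Igsf5 (same strand, 0 reads). Antisense genes over Necab1 had at most 52 reads, and protein-coding genes on the strand opposite to Necab3 had at most 17.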

Additional observations from a re-analysis of the deposited data

Results flagged for a closer look

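Necab2 in replicate 1 of the AAV-shA4-treated SCA7 mice, at 5.80 CPM, lay far from the other 4 libraries of its group: its gap to the nearest of them took up a share of 0.798 of the group's range. It was the 1 such case in 27 sets of libraries (9 genes in the 3 groups of 4 or 5 mice), and chance alone would give about 1 in 20 sets. The same library was high in Slc17a6 (74.5 CPM) and Sst (21.9 CPM).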

How the results depend on the processing

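With an adjusted p alone, 7 members passed for AAV-shA4-treated SCA7 mice against WT mice and 2 for 25w against 9w; every other alternative left each count of called members within 1.5 times its value, and the counts of 0 stayed at 0. With the replicate block, Necab2 was also called with AAV-shA4 (log2 fold change −0.98, edgeR adjusted p = 0.022), which made 5 members; it changed no other call of a member. Nothing says that samples with the same number belong together, and their deviations correlated from −0.224 to 0.539, the highest value being that of the 2 libraries high in Necab2. Over all genes, the 9w count of 8 ranged from 1 to 53 over the alternatives (37 with the replicate block), and the AAV-shA4 against AAV-shSCR count of 0 became 5 with DESeq2 (C1ql3, Cacng3, Hapln1, Amigo2 and Mcf2, named after their values were seen) and 1 (C1ql3) without the 2 libraries high in Necab2, an alternative chosen after seeing the data. Directions turned only for log2 fold changes that were not called, and the cause was not tested. Leaving out 1 library at a time gave, for AAV-shA4 against AAV-shSCR, −0.0534 to 0.0297 for Pcp2, −0.0112 to 0.0473 for Pvalb and −0.084 to 0.744 for Necab2; at 9w, −0.0719 to 0.0826 for Pcp4 and −0.0792 to 0.0515 for Pvalb; and for 25w against 9w, −0.0437 to 0.0558 for Calb1, −0.0335 to 0.0521 for Ppp1r17 and −0.0468 to 0.484 for Necab2. Without both libraries high in Necab2, Pcp2 had 0.0204 and Necab2 −0.0835 for AAV-shA4 against AAV-shSCR, and Necab2 −0.0468 for 25w against 9w. Depth limited Necab2 (36 to 406 reads per library) more than the other members (766 reads or more).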

Other observations

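Genes around the members also moved between 9w and 25w in untreated WT mice. The guanylate cyclase subunit Gucy1a2 (log2 fold change +1.099, edgeR adjusted p = 0.00013) and the nitric oxide synthase Nos1 (+0.42, edgeR adjusted p = 0.000304) were called higher at 25w. The phosphatase inhibitor Ppp1r1a (−0.57), the calcium-binding protein Tesc (−0.50) and the calmodulin-binding growth cone protein Gap43 (−0.39) were called lower. None of these 5 was called in WT mice at 9w with AAV-shA4.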
